A study of Mus musculus with 44 samples.

Results

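The 10 genes described here encode tight junction proteins of the kidney: the claudins Cldn2, Cldn3, Cldn4, Cldn7, Cldn8, Cldn10, Cldn16 and Cldn19, the scaffold Tjp1 and the tricellular junction protein Ildr1. They were taken as a named list, chosen with earlier results of these data known. Counts over the list are therefore no independent evidence. All 10 genes were found among the 12874 genes tested, of 24733 genes with any value above 0. Polyadenylated RNA of whole kidney was measured in 24 libraries of mice of the 129SV strain, aged 8 to 12 weeks after birth and kept on night-restricted feeding. The mice were either wild type (WT) or carried a knockout of Arntl (KO), the gene of the circadian clock activator also known as Bmal1. Kidneys were taken at zeitgeber times (ZT, hours) 0, 4, 8, 12, 16 and 20, with 2 libraries, A and B, for each of the 12 pairings of a genotype with a time. The labels do not say that the libraries of a group came from separate animals, so p-values measure the spread between these libraries, which may be technical. They do not say which part of Arntl was deleted or in which cells. The series also holds 20 libraries of a chromatin contact assay (4C-seq), which were not used here.

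Tight junctions seal the space between neighbouring epithelial cells and decide which ions and how much water pass through it. Claudins form the strands of the junction: some act as pores for particular ions and others as barriers, and each segment of the nephron makes its own combination. Scaffold proteins such as that encoded by Tjp1 tie the strands to the actin cytoskeleton, and angulins such as that encoded by Ildr1 mark the points at which 3 cells meet. The clock factor encoded by Arntl, with its partner, binds E-box sequences in target promoters, and factors downstream of it bind D-boxes and REV-ERB elements.

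Cldn10 has 2 starts that give different proteins, and their transcripts are described separately below. RefSeq lists variant a from the upstream start and variant b from the downstream start, 67.1 kb apart on the plus strand of chromosome 14. Claudin-10a is known as an anion pore of the proximal tubule and claudin-10b as a cation pore of the thick ascending limb. The windows from 250 bases before to 50 bases after each start are shown with that of Ildr1, the gene with the largest genotype difference in the list, 5′ to 3′ on the plus strand, from RefSeq (GRCm38.p6). They lie at chr14:118787621-118787920, chr14:118854700-118854999 and chr16:36693728-36694027. Capitals mark matches to the motifs searched.
Cldn10 upstream start: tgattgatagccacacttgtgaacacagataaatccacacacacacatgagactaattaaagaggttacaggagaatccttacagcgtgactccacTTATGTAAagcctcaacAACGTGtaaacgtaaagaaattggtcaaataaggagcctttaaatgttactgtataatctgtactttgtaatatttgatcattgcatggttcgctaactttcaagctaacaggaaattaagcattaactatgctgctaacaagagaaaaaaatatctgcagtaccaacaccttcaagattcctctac
Cldn10 downstream start: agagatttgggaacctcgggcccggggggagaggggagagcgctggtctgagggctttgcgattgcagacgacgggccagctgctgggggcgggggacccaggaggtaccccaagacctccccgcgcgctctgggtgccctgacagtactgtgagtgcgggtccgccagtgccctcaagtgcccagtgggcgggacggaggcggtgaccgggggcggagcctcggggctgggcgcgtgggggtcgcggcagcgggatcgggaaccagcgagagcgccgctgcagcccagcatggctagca
Ildr1: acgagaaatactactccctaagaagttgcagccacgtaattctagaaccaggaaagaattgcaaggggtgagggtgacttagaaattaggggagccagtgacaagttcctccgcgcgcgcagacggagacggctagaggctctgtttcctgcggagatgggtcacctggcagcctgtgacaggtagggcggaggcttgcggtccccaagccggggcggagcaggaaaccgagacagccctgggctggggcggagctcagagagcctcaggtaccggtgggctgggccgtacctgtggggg
The motifs, searched on both strands, were the E-box CACGTG, the variant E-box CACGTT, the D-box as TTATGTAA or TTACGTAA, and the REV-ERB element TAGGTCA. None of these overlaps another in the windows shown. The upstream Cldn10 window held a D-box that begins 154 bases before the start and a variant E-box, read on the opposite strand, that begins 137 bases before it. The downstream Cldn10 window and the Ildr1 window held none of these letters. Over 32851 RefSeq windows of the same length, 7.15% held the E-box, 4.69% the variant E-box, 1.06% the D-box and 2.61% the REV-ERB element. RefSeq windows were found for 9 of the 10 genes (12 windows), not for Cldn8. Beside the Cldn10 matches, the only match was a REV-ERB element in 1 of the 2 Cldn7 windows.

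Values are TPM, transcript abundance per length scaled to the same total in each library, so they keep no sequencing depth, and the depth is unknown. Arntl itself, summed over its transcripts, ranged from 0.295 to 12.9 TPM in WT with time of day and from 4.19 to 6.28 TPM in KO, which shows no loss of RNA over the whole gene. The library labelled KO ZT4 replicate A stood apart: its Cry1 was at 1.03 TPM against 11.5 to 17.8 in the other 11 KO libraries and its Nr1d1 at 23.8 TPM against 1.23 to 3.46, both within the WT range. Its label was kept, and results that rest on it are given with and without it. The median difference of all genes tested, KO minus WT, was 0.15 on the log2 scale. Differences are therefore read against that shift, and scaling by the median of ratios, which removes it, is named where it ends a call. In whole tissue, fewer cells of a type and less RNA per cell cannot be told apart.

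In WT kidney the genes fell into a high and a low range. Cldn10 and Cldn2, pore-forming claudins, were highest, at a mean of 142 ± 25.4 TPM and 132 ± 8.56 TPM (SD, n = 12), and their ranges overlapped. Cldn8 followed at 25.95 ± 4.06 TPM. Cldn7 (17.0 ± 1.53 TPM) and Cldn19 (16.6 ± 2.79 TPM) did not differ beyond their spread. Tjp1 came next at 11.9 ± 0.972 TPM. The lowest levels were those of Cldn16 (7.41 ± 1.01 TPM), Cldn4 (7.27 ± 1.18 TPM), Ildr1 (7.27 ± 1.03 TPM) and Cldn3 (5.40 ± 0.984 TPM), whose ranges overlapped. In KO kidney Cldn10 (165 ± 20.7 TPM) and Cldn2 (156 ± 10.4 TPM) stayed at the top, and Cldn8 rose to 53.6 ± 7.85 TPM.

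**Figure D1:**
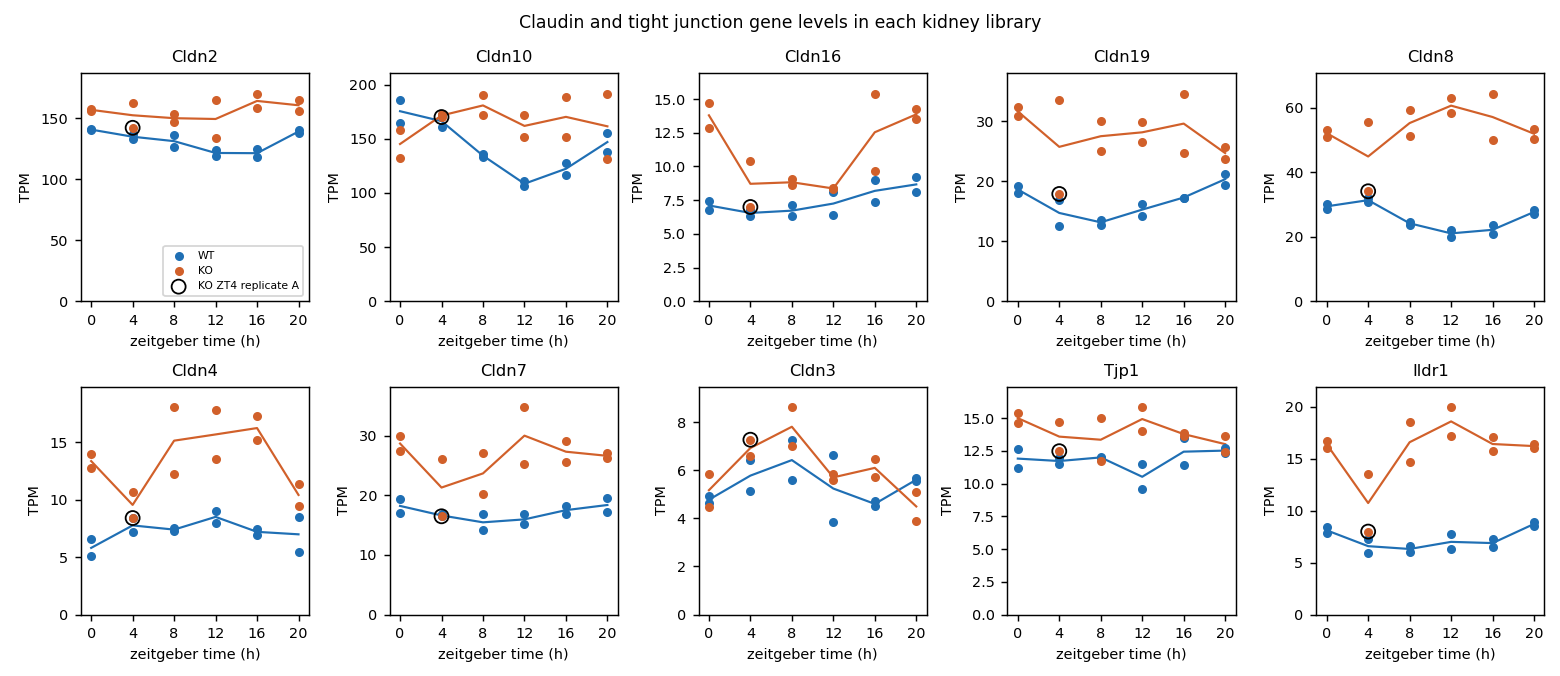
TPM of each gene (vertical axes, from 0) in each of the 24 kidney libraries against zeitgeber time in hours. Points are libraries, lines join the mean of the 2 libraries of a group, blue is WT, orange is KO, and the ring marks the library labelled KO ZT4 replicate A; Cldn8 shows no overlap of genotypes, while Cldn3 shows wide overlap.

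The first comparison asked how the genes differed between KO and WT kidney over the 6 times. Of the 10 genes, 9 were higher in KO and 0 lower at an adjusted p under 0.05, with a median difference of 0.57 on the log2 scale. Over all genes tested, 50.9% were higher by the same rule, so the share called is read against a high background. Since the list was chosen with earlier results known, an excess over that background is no independent evidence. Without the replicate A library labelled KO ZT4, 9 were again higher (52.6% of all genes). Under median-of-ratios scaling, 6 of the 10 were higher and 0 lower, against 22.1% of all genes: Cldn4, Cldn7, Cldn8, Cldn16, Cldn19 and Ildr1. All tests were two-sided, by limma with Benjamini-Hochberg adjustment over all genes tested, and differences are on the log2(TPM + 0.1) scale.

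Among the claudins of the collecting duct and distal nephron, Cldn8 rose most. Cldn8, which builds a chloride-selective path with claudin-4 in the collecting duct, had a lowest, median and highest value of 19.8, 25.9 and 32.0 TPM in the 12 WT libraries and of 34.1, 53.3 and 64.2 TPM in the 12 KO libraries. Every KO library lay above every WT library, the nearest being the library labelled KO ZT4 replicate A. The difference was 1.04 (SE 0.10, adjusted p 3.51e-07), a 2.06-fold ratio, in the same direction at 6 of 6 times. Without that library it was 1.12 (adjusted p 7.21e-10).

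Cldn4, which serves as barrier and chloride path in the same segment, ranged from 5.06 to 9.01 TPM in WT (median 7.36) and from 8.40 to 18.0 TPM in KO (median 13.1). The ranges overlapped through the library labelled KO ZT4 replicate A alone. The difference was 0.85 (SE 0.11, adjusted p 2.61e-06), at 6 of 6 times, and 0.90 without that library. Cldn7, another claudin of the collecting duct, ranged from 14.1 to 19.5 TPM in WT (median 16.9) and from 16.5 to 34.8 TPM in KO (median 26.6). Its difference was 0.61 (SE 0.08, adjusted p 3.71e-06), and again only the library labelled KO ZT4 replicate A fell within the WT range. Without that library the Cldn7 difference was 0.66. Cldn3, a barrier-forming claudin, was at 3.86 to 7.25 TPM in WT (median 5.34) and 3.90 to 8.62 TPM in KO (median 5.84). Its difference of 0.15 (SE 0.09, adjusted p 0.168) did not pass the threshold, and 0.15 is also the median of all genes. It passed in 1 of the 24 fits that left out 1 library, the one without KO ZT20 replicate B (adjusted p 0.0489).

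Most markers of the cells that carry these claudins were also higher. This was not particular to those cells: 5 of 5 podocyte and 4 of 4 thin limb markers were higher (5 and 3 under median-of-ratios scaling). Of 8 proximal tubule markers, 2 were higher and 3 lower (1 and 4 under that scaling). Of 7 principal cell markers, 6 were higher in KO, and their summed level was 175 to 295 TPM in WT and 225 to 527 TPM in KO. Of 7 intercalated cell markers, all 7 were higher, at 72.7 to 99.4 TPM in WT and 97.4 to 169 TPM in KO. Of 5 markers of the distal convoluted tubule, 5 were higher (4 under median-of-ratios scaling), at 262 to 357 TPM in WT and 297 to 531 TPM in KO. In the principal cell, intercalated cell and distal convoluted tubule lists, the lowest KO sum was that of the library labelled KO ZT4 replicate A. Without it the lowest KO sums were 260, 123 and 393 TPM in that order. The intercalated cell and distal convoluted tubule sums then lay above the WT range, while the principal cell sums still overlapped it. None of these markers was at 0 in every library. Their part in the differences of Cldn4, Cldn7 and Cldn8 was not tested. Of 5 markers of urothelium, the lining of the urinary tract, 4 could be tested and all 4 were higher (3 under median-of-ratios scaling). Their sum was 5.04 to 11.7 TPM in WT, 108 TPM in the library KO ZT8 replicate A and 7.89 to 26.1 TPM in the other KO libraries. That library also held the highest Cldn4 value, and without it the Cldn4 difference was 0.81 (adjusted p 5.97e-06). The 2 markers of the papillary surface epithelium were both higher as well, 1 of them under median-of-ratios scaling. These counts stand against 50.9% of all genes higher, and 22.1% under that scaling.

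The claudins of the thick ascending limb also rose. Cldn16 and Cldn19 together form the path for magnesium and calcium in that segment, and loss of either causes renal magnesium wasting. Cldn19 ranged from 12.5 to 21.3 TPM in WT (median 17.1) and from 17.9 to 34.6 TPM in KO (median 28.2). The 11 KO libraries other than that labelled KO ZT4 replicate A were all above the WT libraries. Its difference was 0.75 (SE 0.10, adjusted p 3.40e-06). Cldn16 ranged from 6.31 to 9.23 TPM in WT (median 7.24) and from 6.99 to 15.4 TPM in KO (median 10.1), with overlap also among other KO libraries. Its difference was 0.53 (SE 0.09, adjusted p 5.21e-05). Both were higher at 6 of 6 times. Of the 7 markers of the thick ascending limb, a list that holds Cldn16 and Cldn19, 6 were higher and Umod was lower. The counts were the same under median-of-ratios scaling. Over all genes 50.9% were higher, and 22.1% under that scaling. The markers summed to 1424 to 2186 TPM in WT and 1683 to 2158 TPM in KO. Umod, the marker with the highest level, was at a mean of 1194 TPM in WT and 926 TPM in KO. It weighs heavily in that sum, so the overlap of the sums does not describe the other markers. The part of the markers in these differences was not tested.

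The claudins with the highest levels, Cldn2 and Cldn10, had small differences. Cldn2, the cation and water pore of the proximal tubule, ranged from 118 to 141 TPM in WT (median 135) and from 134 to 170 TPM in KO (median 157), with overlap. Its difference was 0.24 (SE 0.04, adjusted p 3.36e-05) at 6 of 6 times, and under median-of-ratios scaling it was 0.09 (adjusted p 0.0568). Cldn10 ranged from 106 to 186 TPM in WT (median 137) and from 132 to 191 TPM in KO (median 171), with wide overlap. The 0.23 difference of Cldn10 (SE 0.08, adjusted p 0.0273), higher at 5 of 6 times, was 0.08 under median-of-ratios scaling (adjusted p 0.485) and 0.16 after rescaling without mitochondrial genes (adjusted p 0.101). It also missed the threshold in 5 of the 24 fits that left out 1 library, with an adjusted p of up to 0.0551: those without replicate B of WT ZT12, KO ZT12, KO ZT16 or KO ZT20 or replicate A of WT ZT16. Of 8 proximal tubule markers, 2 were higher and 3 lower (1 and 4 under median-of-ratios scaling), at a summed 2287 to 2703 TPM in WT and 2291 to 2868 TPM in KO. Over all genes 50.9% were higher, and 22.1% under that scaling.

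Tjp1, which encodes the scaffold ZO-1, ranged from 9.56 to 13.5 TPM in WT (median 12.0) and from 11.7 to 15.8 TPM in KO (median 13.96), with overlap. Its difference was 0.23 (SE 0.06, adjusted p 0.00153), and 0.08 under median-of-ratios scaling (adjusted p 0.142). Ildr1, also named angulin-2, ranged from 5.90 to 8.96 TPM in WT (median 7.26) and from 7.99 to 19.97 TPM in KO (median 16.2). The 7.99 TPM came from the library labelled KO ZT4 replicate A, and the other 11 KO libraries lay between 13.5 and 19.97 TPM, above every WT library. Its difference was 1.09 (SE 0.09, adjusted p 2.30e-07), a 2.14-fold ratio, and 1.16 without that library. Ildr1 ranked 3 by p among all genes and was put on the list with its size known, so this rank is no independent evidence.

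Complete separation of the genotypes was rarer. With all 12 KO libraries, 1 of the 10 genes, Cldn8, had every KO library above every WT library, against 1.42% of all genes tested. With the 11 KO libraries that leave out the one labelled KO ZT4 replicate A, 5 of the 10 did, against 8.34%: Cldn4, Cldn7, Cldn8, Cldn19 and Ildr1. In that library Cldn8 was at 34.1 TPM against 49.9 to 64.2 in the other KO libraries, Cldn7 at 16.5 against 20.2 to 34.8, and Cldn19 at 17.9 against 23.7 to 34.6.

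**Figure D2:**
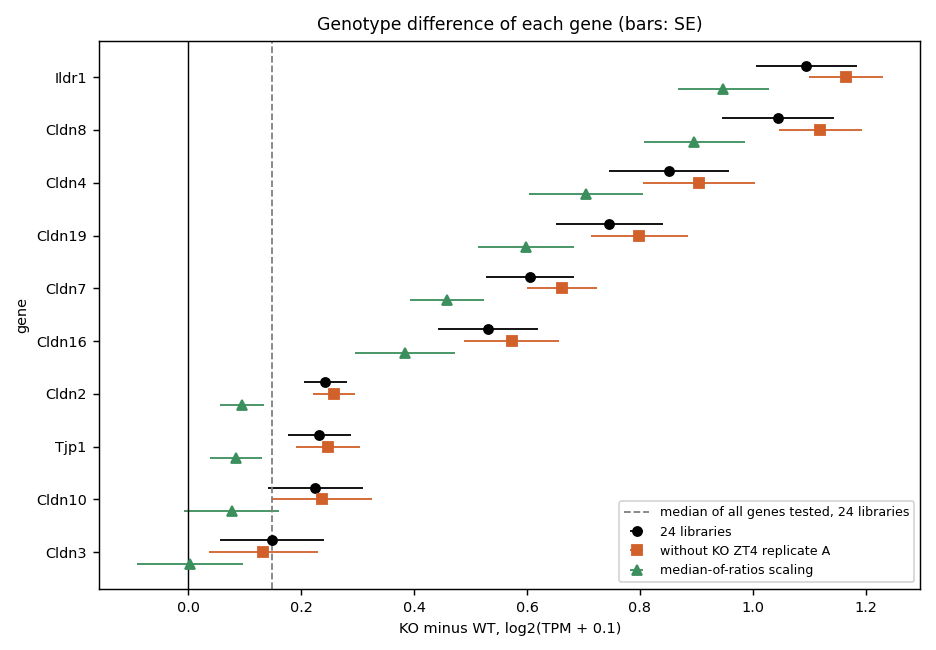
KO minus WT difference of each gene on the log2(TPM + 0.1) scale (horizontal axis) with its SE, from all 24 libraries, without the replicate A library labelled KO ZT4, and under median-of-ratios scaling. The dashed line is the median of all genes tested, 0.15; Ildr1 at 1.09 and Cldn8 at 1.04 lie farthest from it and Cldn3 lies on it.

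The second question was whether the levels followed a 24-hour rhythm in each genotype. A cosine was fitted per genotype, and the peak-to-trough value is its fitted maximum minus minimum. In WT, 2 of the 10 genes were rhythmic, Cldn8 and Cldn10, against 13.7% of all genes tested. In KO, 1 was, Cldn16, against 3.64%. The difference in rhythm between genotypes passed for Cldn8 and Cldn10, against 0.629% of all genes.

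Cldn10 in WT was highest at ZT0 and lowest at ZT12. Its libraries A and B stood at 165 and 186 TPM at ZT0, 172 and 161 at ZT4, 136 and 133 at ZT8, 111 and 106 at ZT12, 117 and 128 at ZT16, and 156 and 138 at ZT20. Both libraries at ZT12 were the lowest of the WT libraries. The WT peak-to-trough value of Cldn10 was 0.68 (SE 0.11, adjusted p 0.00159), with the fitted peak at 1.05 h. In KO the Cldn10 libraries stood at 132 and 158 TPM at ZT0, 170 and 173 at ZT4, 190 and 171 at ZT8, 151 and 172 at ZT12, 151 and 189 at ZT16, and 132 and 191 at ZT20. At ZT20 the 2 KO libraries differed by more than the means of any 2 times, and the KO value was 0.20 (SE 0.11, adjusted p 0.508). For Cldn10 the test of the rhythm difference gave an adjusted p of 0.0437, and 0.102 under median-of-ratios scaling, and passed in 5 of the 24 fits that left out 1 library (up to 0.103). Those 5 were the fits without replicate A of KO ZT4, KO ZT12 or KO ZT16 or replicate B of WT ZT20 or KO ZT20.

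Cldn8 in WT followed a like course at a lower level. Its A and B libraries stood at 28.7 and 30.1 TPM at ZT0, 32.0 and 30.6 at ZT4, 23.6 and 24.7 at ZT8, 22.2 and 19.8 at ZT12, 20.7 and 23.5 at ZT16, and 27.1 and 28.2 at ZT20. The 4 libraries of ZT12 and ZT16 were all below those of ZT0, ZT4 and ZT20. The peak-to-trough value of Cldn8 in WT was 0.58 (SE 0.13, adjusted p 0.0137), with the fitted peak at 1.18 h. In KO the highest Cldn8 mean was at ZT12, 60.6 TPM, the time of the lowest WT mean, 21.03 TPM. The KO value was 0.34 (SE 0.13, adjusted p 0.235), and 0.19 without the replicate A library labelled KO ZT4. For Cldn8 the test of the rhythm difference gave an adjusted p of 0.0454, which was 0.00848 without that library, and it passed in 6 of the 24 fits that left out 1 library (up to 0.0997), those without either library of KO ZT0 or KO ZT4 or replicate A of KO ZT8 or KO ZT16. Both differences in rhythm thus sit at the threshold. When the 6 times were fitted as separate levels rather than as a cosine, neither passed (Cldn8 adjusted p 0.271, Cldn10 0.315).

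Cldn16 was rhythmic in KO, with libraries A and B at 12.9 and 14.7 TPM at ZT0, 6.99 and 10.4 at ZT4, 8.61 and 9.05 at ZT8, 8.39 and 8.34 at ZT12, 15.4 and 9.70 at ZT16, and 14.2 and 13.5 at ZT20. The libraries of ZT0 and ZT20 were all above those of ZT4, ZT8 and ZT12. The Cldn16 peak-to-trough value in KO was 0.85 (SE 0.16, adjusted p 0.0120), with the peak at 20.5 h, against 0.39 (SE 0.16, adjusted p 0.198) in WT. The test of that difference did not pass (adjusted p 0.360), and in the 12 KO libraries alone the Cldn16 rhythm had an adjusted p of 0.147. Cldn19 in WT ran from a mean of 13.2 TPM at ZT8 to 20.4 TPM at ZT20, a peak-to-trough value of 0.59 (SE 0.17, adjusted p 0.0617). It passed without the replicate A library labelled KO ZT4 (0.01005) and under median-of-ratios scaling (0.0336). Ildr1 in WT (0.41, SE 0.18, adjusted p 0.267) passed only without that library (0.0466). Cldn2, Cldn3, Cldn4, Cldn7 and Tjp1 did not pass in either genotype in this model, with WT values from 0.14 for Tjp1 to 0.39 for Cldn4. Cldn2 in WT (adjusted p 0.0705) passed without KO ZT12 replicate A (0.0249), in the 12 WT libraries alone (0.0178) and with the replicate letter as a block (0.0375).

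**Figure D3:**
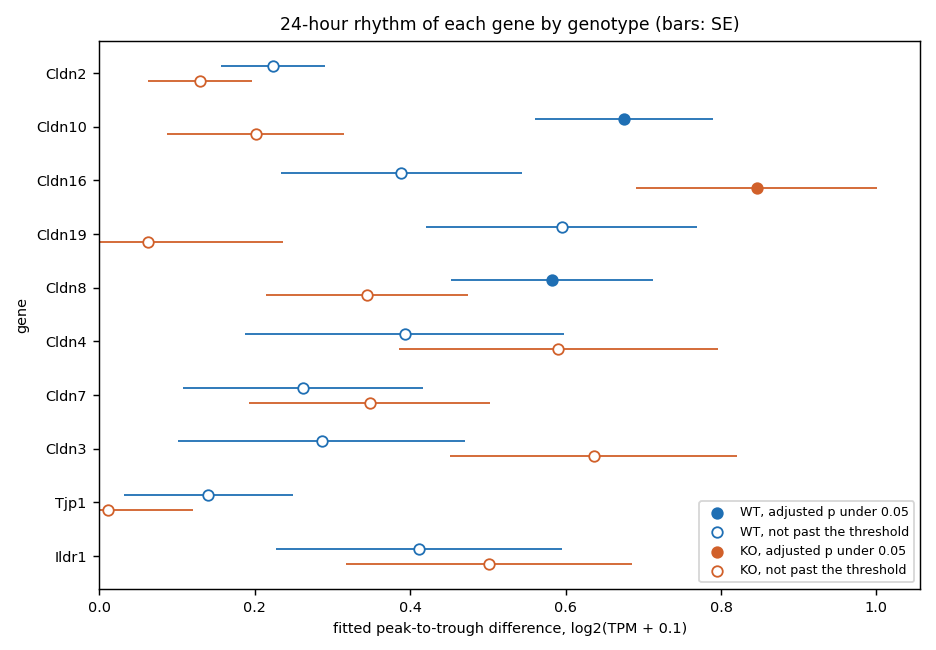
Fitted peak-to-trough difference of a 24-hour cosine on the log2(TPM + 0.1) scale (horizontal axis) with its SE for each gene, WT in blue and KO in orange. Filled points passed an adjusted p under 0.05: Cldn8 and Cldn10 in WT and Cldn16 in KO.

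The third comparison looked below the gene sums. The table holds 27 transcripts of the 10 genes, and 18 of them had a mean of at least 1 TPM. Of these 18, 13 were higher in KO and 0 lower, against 31.9% higher of the 26201 transcripts tested. A difference in time course between the 2 starts of Cldn10 was not tested. The deposited values rest on reads assigned to transcripts by estimation, so transcripts that share most exons are less certain than the gene sums.

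Cldn10-201, the transcript of the upstream start and of RefSeq variant a, carried most of the RNA. Its lowest, median and highest values were 97.5, 128 and 176 TPM in WT and 115, 156 and 177 TPM in KO, with wide overlap. The Cldn10-201 difference was 0.17 (SE 0.09, adjusted p 0.140), with an adjusted p of 0.0379 without KO ZT0 replicate A. In WT it was rhythmic, with a peak-to-trough value of 0.70 (SE 0.13, adjusted p 0.00624) and a peak at 1.06 h. Cldn10-203, the transcript of the downstream start and of RefSeq variant b, was at 7.15, 8.57 and 9.69 TPM in WT and at 10.9, 15.5 and 23.2 TPM in KO. Every KO library was above every WT library. Of all genes tested, 1.42% separated in this way, and the share of all transcripts was not counted. The lowest KO value of Cldn10-203 was again that of the library labelled KO ZT4 replicate A. The Cldn10-203 difference was 0.85 (SE 0.09, adjusted p 2.49e-06), and 0.90 without that library. Of the 7 thick ascending limb markers given above, 6 were higher, Cldn16 and Cldn19 among them, against 50.9% of all genes. Umod, which weighs heavily in the sum of these markers, was lower, and the sums overlapped between genotypes. The part of the markers was not tested. The WT peak-to-trough value of Cldn10-203 was 0.24 (SE 0.17, adjusted p 0.632). The window printed above for the upstream start held a D-box and a variant E-box, and that for the downstream start held neither. Any part of these motifs in the levels or the rhythm was not tested. The annotation used for the gene sums (GENCODE) starts Cldn10-203 at 118854732, ahead of the RefSeq start at 118854950. The printed window therefore reaches only a short way before that transcript.

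The share of Cldn10 RNA that came from Cldn10-201 fell from 93.8% ± 0.848 in WT to 90.4% ± 2.37 in KO (SD, n = 12). In WT it ranged from 91.9% to 94.9% (median 94.1%), and in KO from 84.6% to 93.3% (median 90.9%), the highest KO value being that of the library labelled KO ZT4 replicate A. The difference of -3.45 percentage points had a p of 4.29e-05 in an exact two-sided permutation test within times, the smallest that the 46656 permutations can give (adjusted p 0.0163 over 5713 genes). Without that library it was -3.72 points (adjusted p 0.00765). Of the 7 members with at least 2 transcripts at this level, Cldn10 was the only one called, against 2.07% of all genes tested. The shares of Cldn2, Cldn7, Cldn16, Cldn19, Tjp1 and Ildr1 did not pass (adjusted p 0.349 to 0.941).

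**Figure D4:**
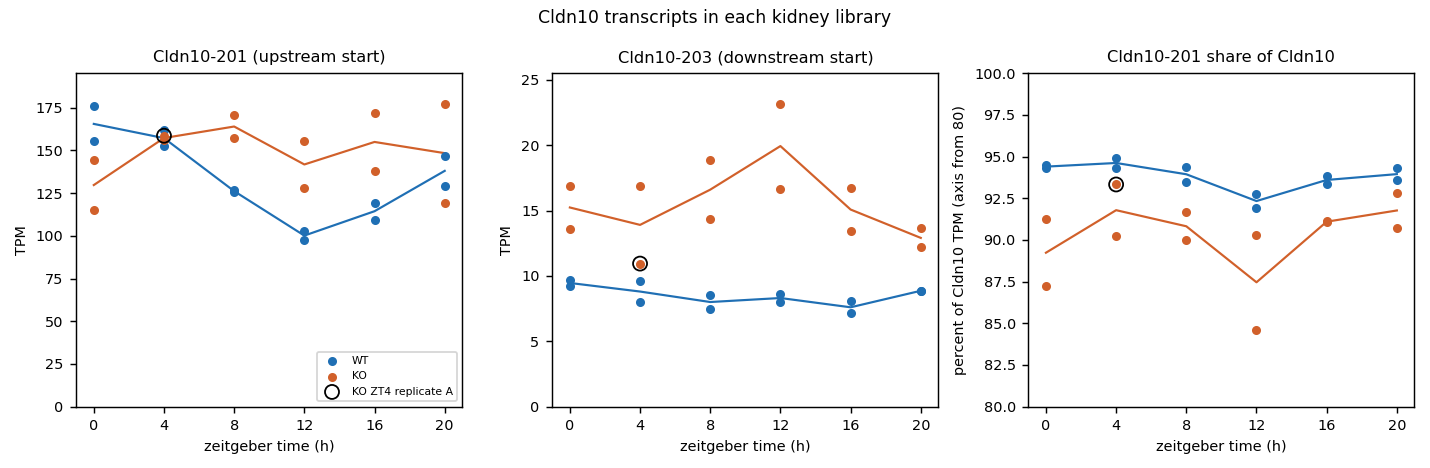
TPM of Cldn10-201 and Cldn10-203 and the share of Cldn10 TPM held by Cldn10-201 (percent, axis from 80) in each library against zeitgeber time in hours, WT in blue and KO in orange, lines through group means, ring on the library labelled KO ZT4 replicate A. Cldn10-201 overlaps between genotypes, Cldn10-203 does not, and the share is lower in KO.

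The other transcripts mostly followed their genes. Both Cldn19 transcripts rose, Cldn19-201 by 0.69 (SE 0.11) and Cldn19-202 by 0.84 (SE 0.09). Both Ildr1 transcripts rose, Ildr1-201 from 4.49 ± 0.836 to 9.34 ± 2.28 TPM and Ildr1-203 from 1.74 ± 0.603 to 3.98 ± 0.972 TPM. Cldn7-201 (0.58), Cldn7-205 (0.56), Cldn16-202 (0.59), Cldn2-201 (0.24) and Tjp1-202 (0.27) also passed, though Cldn2-201 did not under median-of-ratios scaling (0.10, adjusted p 0.0753). The single transcripts of Cldn4 and Cldn8 rose as their genes did, and that of Cldn3 (0.15, adjusted p 0.224) did not pass. Tjp1-203, annotated as a processed transcript without a coding frame, passed narrowly (0.24, adjusted p 0.0477). It missed the threshold under median-of-ratios scaling (0.10, adjusted p 0.482) and in 18 of the 24 fits that left out 1 library. Cldn2-203, Cldn16-201 and Tjp1-201, each under 3 TPM, did not pass, and the Tjp1-201 difference of -0.10 (SE 0.23) turned to 0.078 without KO ZT8 replicate A.

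Rhythm at the level of transcripts was tested after the data had been seen. In WT, 4 of the 18 transcripts were rhythmic, against 6.89% of all transcripts: Cldn10-201, Cldn8-201, Cldn19-201 (adjusted p 0.0409) and Ildr1-203 (0.0304). Cldn8-201 is the single transcript of its gene and repeats the gene result. Ildr1-203 was low in WT, at 0.616 to 2.50 TPM. Cldn19-201 ran from 8.18 TPM at ZT8 to 14.3 TPM at ZT20 in the WT means, while Cldn19-202 had a peak-to-trough value of 0.28 (SE 0.19, adjusted p 0.633). For the difference in rhythm 0 of the 18 passed in limma, against 0.256% of all transcripts, with 5 at an unadjusted p under 0.05 (9.98% of all transcripts). Without the replicate A library labelled KO ZT4, Cldn8-201 passed (adjusted p 0.0171).

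The members were set beside the other genes of the junction, a list of 14 further claudins and 23 other junction genes in which Pals1 is another name of Mpp5. Of these, 27 reached the level tested, 19 were higher in KO and 1 was lower, with a median difference of 0.24. Over all genes 50.9% were higher and the median was 0.15. Under median-of-ratios scaling, 12 were higher and 4 lower, against 22.1% of all genes higher. Among other claudins, Cldn1, a barrier claudin, rose most, from 4.77 ± 1.31 to 15.2 ± 3.75 TPM (1.66, SE 0.16, adjusted p 3.91e-07). Cldn5, the claudin of endothelium, rose by 0.48 (SE 0.08), while 3 of 6 endothelial markers, Cldn5 among them, were higher (2 higher and 1 lower under median-of-ratios scaling).

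Of the 22 other junction genes tested, 16 were higher and 1 was lower (10 and 3 under median-of-ratios scaling). Over all genes 50.9% were higher, and 22.1% under that scaling. Cgn, which encodes cingulin, rose from 4.77 ± 0.908 to 8.81 ± 1.14 TPM (0.88, SE 0.09), and was itself rhythmic in WT (adjusted p 0.00408). Tjp3, the gene of the scaffold ZO-3, rose by 0.59 (SE 0.08), against 0.23 for Tjp1. F11r, an adhesion molecule of the junction, rose by 0.40 (SE 0.05). The polarity genes Crb3 and Pard6b rose by 0.43 (SE 0.06) and 0.41 (SE 0.07). Lsr, another angulin gene, rose by 0.22 (SE 0.04), a difference of 0.07 under median-of-ratios scaling (adjusted p 0.143), and the third angulin, Ildr2, was at -0.09 (SE 0.05, adjusted p 0.0815), and was called lower under median-of-ratios scaling (-0.24, adjusted p 0.000341) and after rescaling without mitochondrial genes (-0.16, adjusted p 0.0237). Magi1, a scaffold, rose by 0.24 (SE 0.05). Mpp5, a polarity scaffold, fell by 0.22 (SE 0.05) and was lower at every one of the 6 times.

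**Figure D5:**
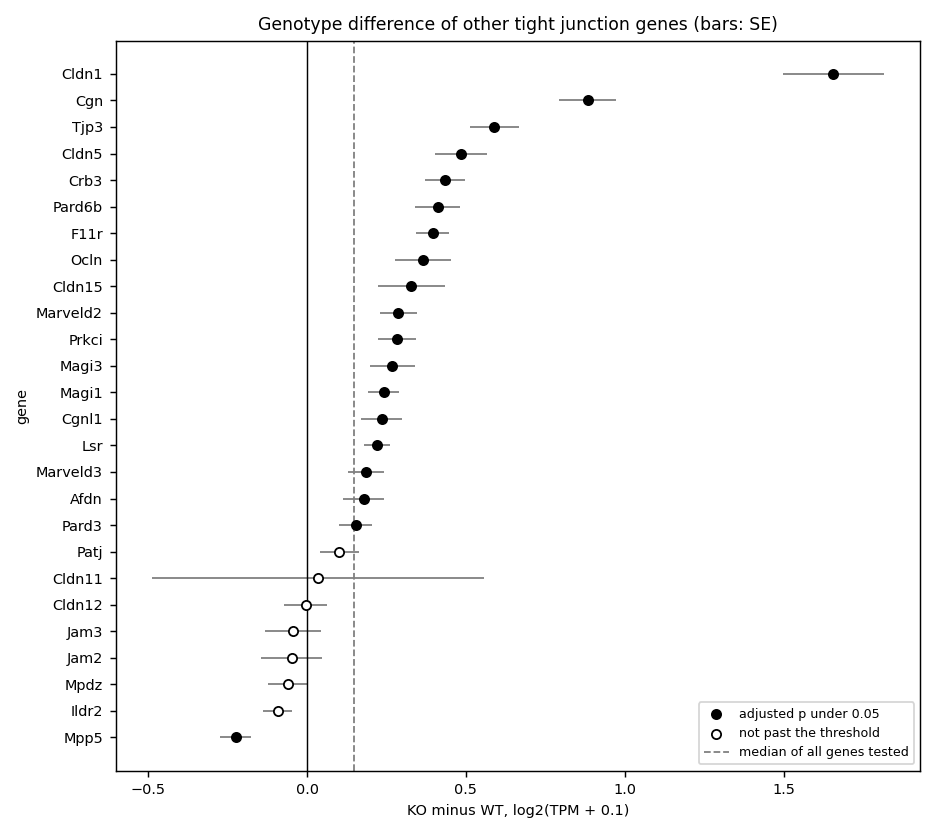
KO minus WT difference of other tight junction genes on the log2(TPM + 0.1) scale (horizontal axis) with its SE, filled where the adjusted p was under 0.05, with the median of all genes as a dashed line. Cldn1 at 1.66 and Cgn at 0.88 lie highest, and Mpp5 at -0.22 is the only one shown that was called lower.

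The genes whose pattern over the 24 libraries was most like each member were found by Pearson's r of log2 values, given as a description. Since WT and KO libraries differ in level, a shared genotype difference alone gives a high r. For Ildr1 they were Il17re (r 0.99, rho 0.93), Rdh16f2 (0.98, 0.97) and Igfbp7 (0.98, 0.92). For Cldn8 they were Ermp1 (0.98, 0.95), Dcdc2a (0.98, 0.93) and Sdc4 (0.97, 0.95). For Cldn7 they were Sim2, Twsg1 and Cd59a (r 0.96 to 0.97), for Cldn4 Tmem30b, Capn1 and Epcam (0.94 to 0.96), and for Cldn19 Tspan33, Hoxb9 and Slc2a1 (0.94 to 0.96). The likeness was lower for Cldn2 (Rtl6, Fabp7 and Ier5, 0.91 to 0.93), Cldn16 (Hoxd8, Kctd1 and Dnaja3, 0.88 to 0.92) and Tjp1 (Ric1, Ift172 and Ctnnb1, 0.89 to 0.90). It was lowest for Cldn10 (Clpx, Pnp and Prpsap2, 0.81 to 0.88) and Cldn3 (Lpin3, H1fx and 2410002F23Rik, 0.76 to 0.80). Within the 12 WT libraries Cldn8 was most like Pnp (r 0.97, rho 0.97), Rnf144a and Tril, and Ildr1 most like Oat (r 0.96, rho 0.96), Afm and Paqr5. Within the 12 KO libraries Cldn8 was most like 4930550C14Rik (r 0.96, rho 0.94), Kng1 (0.96, 0.87) and Ermp1 (0.96, 0.80). Ildr1 was there most like Rdh16f2 (r 0.96, rho 0.85), Il17re (0.95, 0.64) and Arg2 (0.95, 0.78). These KO values include the library labelled KO ZT4 replicate A, which lies far from the others for both genes.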

How the data were processed

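The authors deposited TPM per transcript for the 24 RNA libraries, with kallisto 0.42.4 and the builds mm10 and GRCm38 named in the submitters' processing notes, and each deposited TPM column sums to 999999 to 1000001. Depth is unknown. Transcripts were summed to genes through GENCODE M21, by identifier without version (86119 of 88198 matched, the rest holding 1.35% to 2.24% of TPM). Between 12398 and 12911 genes reached 1 TPM per library. Groups came from the labels alone.

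The 10 genes and all lists were chosen with earlier results of these data known. The naming rule took Arntl, every member and its transcripts of at least 1 TPM, up to 10 partners past the threshold by smallest p, and the 3 genes most like each member. Ildr2, Mpp5, Umod, Cry1 and Nr1d1 were added after their values were seen. The values of 1 gene of the partner list are not reported here, and it stays in the counts.

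Genes averaging 1 TPM or more were tested with limma 3.58.1 (R 4.3.3; trend and robust) on log2(TPM + 0.1), with time as a 6-level factor for the genotype difference and a 24-hour cosine and sine per genotype for rhythm (moderated F). Adjustment was by Benjamini-Hochberg, threshold 0.05. Transcript shares were compared by an exact permutation test within times. The design set adjustment over the members; all 5713 genes with a share were used instead. The tests were first tested on simulated data. Alternatives were the pseudocount (1, 0.01), the filter (none, 5 TPM), median-of-ratios scaling, rescaling without mitochondrial genes (32.3% to 42.5% of TPM), the replicate letter as a block, each library left out, and other time models. With TPM as deposited, marker lists for adipose, liver, immune, podocyte and thin limb cells were run too: 0 of 4, 2 of 4, 0 of 3, 5 of 5 and 4 of 4 tested genes were higher in KO, and 1, 1, 0, 0 and 0 lower. Under median-of-ratios scaling 3 of the 4 thin limb genes were higher and 1 of the 3 immune genes lower. Of all genes, 50.9% were higher with TPM as deposited and 22.1% under that scaling.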

Additional observations from a re-analysis of the deposited data

Results flagged for a closer look

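The rhythm of Cldn8 differed between the genotypes by the test of the difference itself (adjusted p 0.0454, limma over 12874 genes): its WT means were highest at ZT4 (31.3 TPM) and lowest at ZT12 (21.03 TPM), and its KO means were highest at ZT12 (60.6 TPM). The rhythm of Cldn10 differed likewise (adjusted p 0.0437). Its WT means ran from 175 TPM at ZT0 to 108 TPM at ZT12. Its KO means ran from 145 TPM at ZT0 to 181 TPM at ZT8. Both calls sat at the threshold. In fits that each left out a library, Cldn8 passed in 6 of 24 and Cldn10 in 5 of 24. Neither Cldn8 nor Cldn10 passed without a filter (adjusted p 0.0932 and 0.0872) or with the times as separate levels (0.271 and 0.315). Under median-of-ratios scaling Cldn8 passed (adjusted p 0.0303) and Cldn10 did not (0.102).

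Cldn10 also changed direction between times. At ZT0 both KO libraries (132 and 158 TPM) lay below both WT libraries (165 and 186 TPM), a difference of -0.276 on the log2 scale, while at 3 other times, ZT8, ZT12 and ZT16, both lay above. Cldn3 did the same at ZT20, where the KO libraries (5.09 and 3.90 TPM) lay below the WT libraries (5.67 and 5.55 TPM), a difference of -0.325 on the log2 scale, against higher KO values at ZT4 and ZT16. These changes of direction between single times were not tested.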

How the results depend on the processing

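The 9 genes called higher in KO stayed 8 to 9 in the fits that left out 1 library. They stayed 9 under both pseudocounts, both filters and without time in the model. Rescaling without mitochondrial genes left 8 and ended the call of Cldn10. Median-of-ratios scaling left 6 and ended the calls of Cldn2, Cldn10 and Tjp1. Over all genes, 7844 were called in either direction (7410 to 8101 with 1 library left out), 6555 higher and 1289 lower in KO. The rhythm calls depended more on the choices, and the cause was not tested. Genes rhythmic in WT, KO or differing in rhythm numbered 1761, 468 and 81, and with 1 library left out 1194 to 2140, 272 to 626 and 37 to 112; those among the 10 members were then 2 to 4, 1 to 1 and 0 to 2. Without a filter, 295 genes were rhythmic in KO and 43 differed, 0 of them members, where more genes were tested. Under median-of-ratios scaling 1 member differed. The 12 WT libraries alone gave 2843 genes and 4 members, and the 12 KO libraries alone 12 genes and 0 members. With time as a 6-level factor there were 576 and 28 rhythmic genes and 23 differing, with 0 members in each. Transcripts called in either direction numbered 10239 (9294 to 10840 with 1 library left out), and 6021 at a mean of at least 5 TPM, where fewer were tested. The share test called 118 genes, from 79 to 183 with 1 library left out, the highest without KO ZT4 replicate A. The Cldn2 share difference of 0.0672 points ranged from -0.0177 to 0.174 and the log2 genotype difference of the transcript Tjp1-201 from -0.20 to 0.0776, both uncalled. Of the other values for single genes, transcripts and shares, 1897 kept their side of the threshold, 76 lost a call and 9 gained one. Direction was compared for the genotype and share differences, not for the rhythm tests.

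The letters A and B are shared by all groups, but nothing says that they pair libraries: over 66 pairs of groups the correlation of the A-to-B deviations ran from -0.323 to 0.338 (median 0.0223). With the letter as a replicate block, 7873 genes differed by genotype, 9 of them members, and 1842, 525 and 76 were rhythmic in WT, in KO or differed in rhythm; Cldn2 passed in WT (adjusted p 0.0375) and Tjp1-203 no longer passed (0.0536).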
